A study of Mus musculus with 4 samples.

Results

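Exit from the cell cycle was followed through 10 of its regulators in RNA sequencing of whole mouse lenses: the Cip/Kip inhibitors *Cdkn1a* (p21), *Cdkn1b* (p27) and *Cdkn1c* (p57), the D-type cyclins *Ccnd1*, *Ccnd2* and *Ccnd3*, their kinases *Cdk4* and *Cdk6*, and the pocket proteins *Rb1* and *Rbl2* (p130). They were chosen by name for their known role, with earlier results of these data known, and all 10 were among the 56748 genes of the deposited table. The comparison was between 2 mutant libraries, labelled Fsp1-cre;Pdgfrb+/D849V, and 2 control libraries, labelled Fsp1-cre;Pdgfrb+/+, all from lenses of mice aged 10 to 12 days, and it addresses which transcripts differ early in a line that later forms cataracts. In the mutant, cre recombinase is driven by the *Fsp1* (*S100a4*) promoter, which is not specific to the lens. Where cre is active, the design switches on an overactive form of the PDGF receptor beta from its own locus, in heterozygous form. The line is on an FVB/N background and also carries a cre-dependent tdTomato reporter at *Rosa26*. The earliest robust reporter activity that the paper described in the lens epithelium was at an age of weeks, past the 10 to 12 days sampled here. The paper assumed, and did not show, that the mutant receptor is expressed once cre is active. Its activity at the age sampled is therefore not established. The methods of the study describe the control pools as a mixture that includes mice without cre and mice with the D849V allele without cre, which differs from the genotype on the labels. Lenses of several mice were pooled for each library, so the p-values given here measure the spread between pools.

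Lens epithelial cells divide near the lens equator, then leave the cell cycle for good as they elongate into fibre cells. In a dividing cell, a D-type cyclin bound to CDK4 or CDK6 phosphorylates the retinoblastoma protein and its relatives, which releases E2F factors to switch on genes of S phase. Cip/Kip proteins bind cyclin-CDK complexes and hold them inactive, and p57 is the family member best known from differentiating lens fibres, where the retinoblastoma protein is needed for a stable exit. D-type cyclins are also the members of this machinery that respond most directly to growth factor receptors.

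The libraries held between 18561682 and 18878768 reads recovered from the deposited values, and 16 crystallin genes took between 58.6% and 62.9% of them. Mutant replicate 1 and control replicate 2 had lower *Xist* (7.62 and 5.56 FPKM) than mutant replicate 2 and control replicate 1 (13.1 and 15.6 FPKM), a split that crosses the groups. Levels are given as FPKM, the fragments of a gene divided by its length and by a size for the library. Levels can thus be compared between genes. That size was 0.944 to 1.05 times the reads of the library, and not the reads themselves. Differences are log2 fold changes of mutant over control on the scale log2(FPKM + 0.1), which understates the change of genes with low FPKM. They were tested with limma across the 15997 genes whose mean reached 0.1 FPKM, and all 10 genes passed that filter.

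*Cdkn1c* stood far above the other 9 genes, with a mean of 129.8 FPKM over the 4 libraries and rank 147 of the 15997 genes tested. *Cdk4* followed at 11.1 FPKM, then *Ccnd1* at 8.01, *Ccnd3* at 7.63 and *Ccnd2* at 7.22 FPKM. *Cdk4* was above *Ccnd3* and *Ccnd2* in every library but its range overlapped that of *Ccnd1*. The ranges of the 3 cyclins overlapped one another, so their order was not separated by the data, and the lowest *Ccnd2* value also lay within the range of *Cdkn1b*, which had a mean of 4.69 FPKM. Below them, *Rb1* (1.58 FPKM), *Rbl2* (0.885 FPKM), *Cdk6* (0.410 FPKM) and *Cdkn1a* (0.130 FPKM) stood in that order with no overlap between neighbours in any library. *Cdkn1a* ranked 15140 of 15997.

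**Figure D1:**
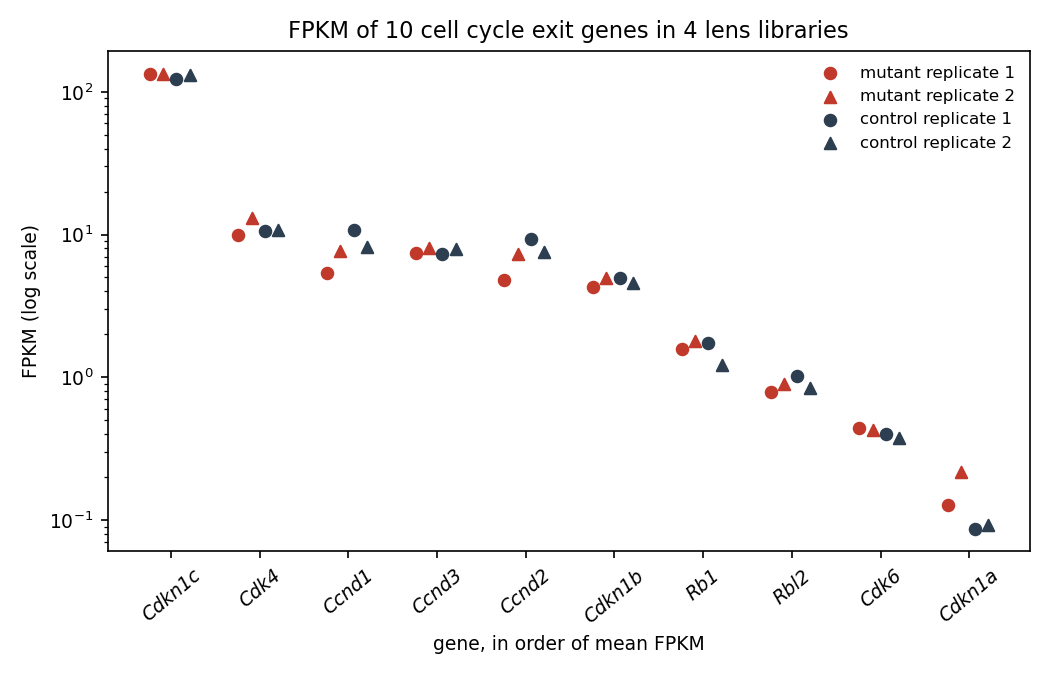
FPKM of the 10 cell cycle exit genes in each library, on a log axis, with one point for each mutant and control library. *Cdkn1c* lies at 122 to 134 FPKM in all 4 libraries, whereas *Cdkn1a* lies at 0.0868 to 0.216 FPKM.

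None of the 10 genes passed an adjusted p under 0.05 in limma, a level that 0.0375% of all genes tested passed, and none had an unadjusted p under 0.05 in limma, against 6.31% of all genes. Of the 10, 6 were higher and 4 lower in the mutant mean, with a median log2 fold change of 0.05, beside 0.0041 over all genes tested. The 2 groups did not overlap for 5 of the 10 genes, beside 36.6% of all genes tested: *Cdkn1a*, *Cdkn1c* and *Cdk6* were higher in both mutant libraries, and *Ccnd1* and *Ccnd2* were lower. The 5th and 95th percentiles of the log2 fold change over all genes tested were -0.70 and 0.83, and each of the 10 lay between them.

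**Figure D2:**
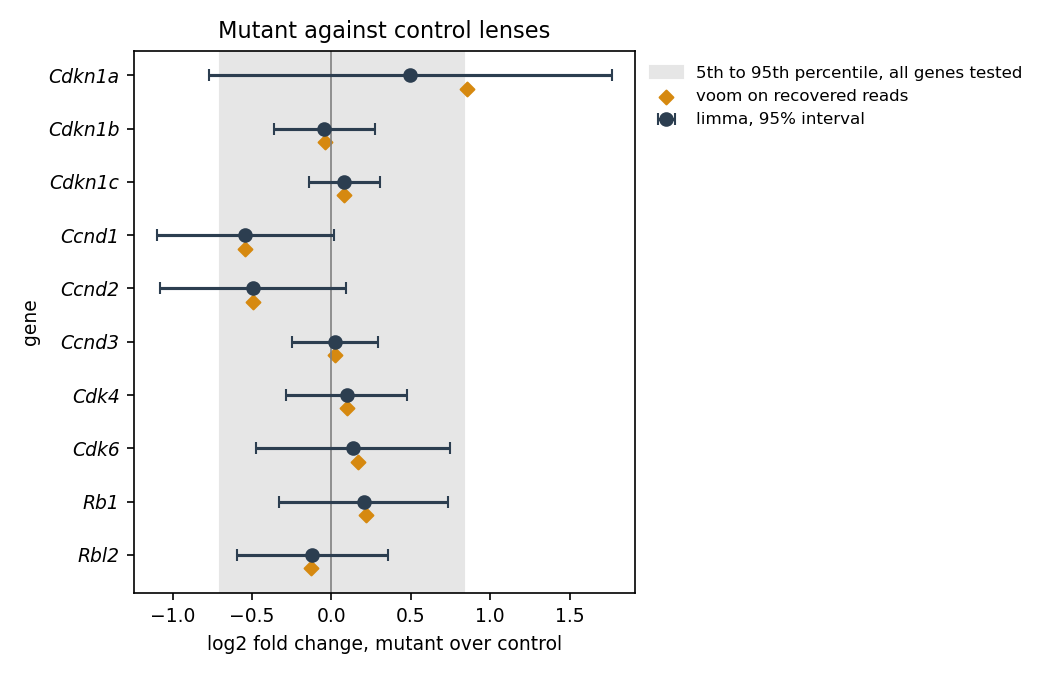
Log2 fold change of mutant over control for the 10 genes, with circles for the limma estimate, bars for its 95% confidence interval, diamonds for voom on whole reads and a grey band from the 5th to the 95th percentile of all genes tested. Every interval includes 0, with *Ccnd1* (-1.10 to 0.017) and *Ccnd2* (-1.08 to 0.09) reaching furthest below it.

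Among the Cip/Kip inhibitors, *Cdkn1c* (ENSMUSG00000037664, chr7:143012076-143014787) encodes p57, an imprinted inhibitor of cyclin-CDK complexes. Its levels were 134 and 133 FPKM in mutant replicates 1 and 2 and 122 and 130.4 FPKM in control replicates 1 and 2. Both mutant libraries were thus above both controls, by little. The log2 fold change was 0.08 (SE 0.09; limma adjusted p = 0.845), and its 95% confidence interval corresponds to a ratio of mutant to control between 0.906 and 1.24. With at least 4836 reads in every library, counting error alone gives an SE of only 0.02, so depth was not the limit on this interval.

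*Cdkn1b* (ENSMUSG00000003031, chr6:134897364-134902476) encodes p27, the inhibitor most often linked to quiescence. It measured 4.30 and 4.95 FPKM in the mutant and 4.94 and 4.59 FPKM in the control libraries. The groups overlapped, and the log2 fold change was -0.04 (SE 0.12; limma adjusted p = 0.953).

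*Cdkn1a* (ENSMUSG00000023067, chr17:29309950-29319701) encodes p21, which p53 induces after DNA damage. It measured 0.126 and 0.216 FPKM in the mutant libraries against 0.0868 and 0.0916 FPKM in the controls. These values rest on 8 and 15 reads in the mutant and 6 reads in each control library, and a counting SE of 0.52 is as large as the log2 fold change of 0.50 itself (SE 0.50; limma adjusted p = 0.836). The estimate moved with the scale, from 0.10 with a pseudocount of 1 to 0.86 in voom, and with the libraries, from 0.26 without mutant replicate 2 to 0.74 without mutant replicate 1. A difference was not detectable at this depth. The summed level of 5 leukocyte markers moved in the same direction, from 0.204 to 0.241 FPKM in the controls to 0.388 and 0.866 FPKM in the mutant libraries, with *Ptprc*, the pan-leukocyte marker, at 0.0061 FPKM or less in every library. The 5 mesenchymal markers together measured 0.722 to 0.799 FPKM in the controls and 1.01 to 1.32 FPKM in the mutant, with *Lum* listed at 0. Only 1 of the leukocyte and 2 of the mesenchymal markers passed the filter, all higher in the mutant mean. In each list 1 had an unadjusted p under 0.05 in limma, and in voom 0 and 1 did. None had an adjusted p under 0.05 in limma. The part of these markers in the *Cdkn1a* values was not tested.

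Within the family, *Cdkn1c* took 96.8% and 96.3% of the summed Cip/Kip FPKM in the mutant libraries, against 96.0% and 96.5% in the controls. *Cdkn1b* took 3.10% to 3.89% and *Cdkn1a* at most 0.156%. The ratio of *Cdkn1c* to *Cdkn1b* was 31.2 and 26.8 in the mutant libraries and 24.7 and 28.4 in the controls, so the groups overlapped.

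Among the D-type cyclins, *Ccnd1* and *Ccnd2* had the lowest p-values of the 10 genes. *Ccnd1* (ENSMUSG00000070348, chr7:144483668-144493662), which encodes cyclin D1, the D-type cyclin best known as a target of growth factor signalling, measured 5.40 and 7.67 FPKM in mutant replicates 1 and 2 and 10.8 and 8.21 FPKM in control replicates 1 and 2. Mutant replicate 1 was lowest and control replicate 1 highest, while mutant replicate 2 and control replicate 2 lay close together. The means were 6.53 ± 1.61 FPKM in the mutant and 9.50 ± 1.81 FPKM in the control (SD, n = 2). The log2 fold change was -0.54 (SE 0.22; limma unadjusted p = 0.055, adjusted p = 0.800), a ratio of 0.687. The 95% interval runs from -1.10 to 0.017, so at most a gain of 1.01-fold lies inside it.

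*Ccnd2* (ENSMUSG00000000184, chr6:127102125-127129156) encodes cyclin D2 and ordered the 4 libraries in the same way. It measured 4.78 and 7.32 FPKM in the mutant and 9.24 and 7.56 FPKM in the control libraries, with means of 6.05 ± 1.80 and 8.40 ± 1.19 FPKM (SD, n = 2). Here too the second mutant and second control libraries were nearly level. The log2 fold change was -0.49 (SE 0.23; limma unadjusted p = 0.084, adjusted p = 0.809). With 801 to 1691 reads a library, counting error gives an SE of 0.04.

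*Ccnd3* (ENSMUSG00000034165, chr17:47815976-47910616), which encodes cyclin D3, did not share this order. Its levels were 7.38 and 7.99 FPKM in the mutant and 7.27 and 7.87 FPKM in the control libraries. The groups overlapped, and the log2 fold change was 0.02 with a 95% interval from -0.25 to 0.29 (limma adjusted p = 0.978).

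The summed FPKM of the 3 cyclins was 17.5 and 23.0 in the mutant libraries, against 27.3 and 23.6 in the controls, or 20.3 ± 3.84 against 25.5 ± 2.58 (SD, n = 2). *Ccnd3* took 42.0% and 34.8% of this sum in the mutant libraries against 26.6% and 33.3% in the controls. *Ccnd1* took 30.8% and 33.4% against 39.5% and 34.7%, and *Ccnd2* took 27.2% and 31.8% against 33.9% and 32.0%. The ratio of *Ccnd1* to *Ccnd2* stayed between 1.05 and 1.17 in all 4 libraries. *Cdkn1c* exceeded the summed D-type cyclins 7.65-fold and 5.78-fold in the mutant libraries and 4.47-fold and 5.51-fold in the controls. These shares and ratios are descriptions and were not tested.

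The way *Ccnd1* and *Ccnd2* were tested moved their unadjusted p up or down but did not change their adjusted call. With the trend left out of limma, the unadjusted p rose to 0.12 for *Ccnd1* and 0.16 for *Ccnd2*. With the replicate block in limma it rose to 0.067 and 0.090. On whole reads, limma's voom gave *Ccnd1* a log2 fold change of -0.54 (unadjusted p = 0.0013, adjusted p = 0.253) and *Ccnd2* one of -0.50 (unadjusted p = 0.0022, adjusted p = 0.289). These 2 of the 10 genes had an unadjusted p under 0.05 in voom, beside 7.43% of all genes. With a term for the *Xist* split, limma gave *Ccnd1* an unadjusted p of 0.0050 (adjusted p = 0.547) and *Ccnd2* one of 0.016 (adjusted p = 0.682), again 2 of the 10 genes beside 6.87% of all genes. Between the 2 libraries with lower *Xist*, the log2 difference was -0.60 for *Ccnd1* and -0.65 for *Ccnd2*, and between the 2 with higher *Xist* it was -0.49 and -0.33.

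**Figure D3:**
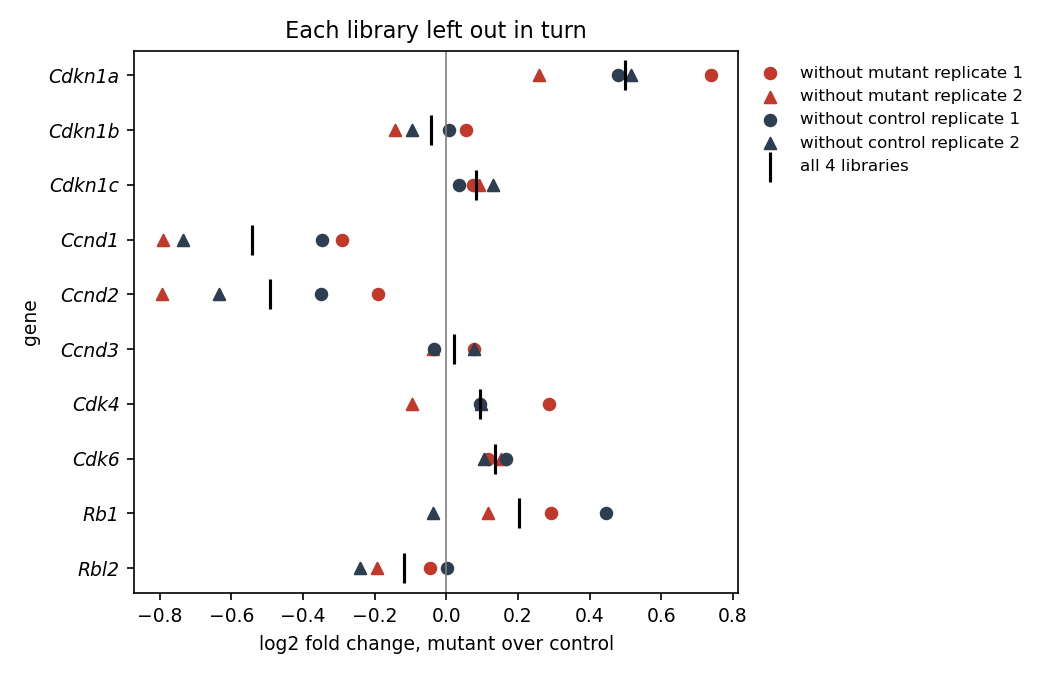
Log2 fold change of mutant over control for each of the 10 genes with all 4 libraries (black bars) and with 1 library dropped at a time (points). *Ccnd1* ranges from -0.79 to -0.29 and *Ccnd2* from -0.79 to -0.19, below 0 throughout, while *Cdkn1b*, *Ccnd3*, *Cdk4*, *Rb1* and *Rbl2* cross 0.

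Markers of the lens epithelium, the layer that holds the dividing cells, were lower in the mutant mean for 5 of 6 genes, with a median log2 fold change of -0.17. Their summed level was 135 and 161 FPKM in the mutant and 154 and 158 FPKM in the control libraries, and 0 of the 6 had an unadjusted p under 0.05 in limma and 3 in voom (*Cdh1*, *Cdh2* and *Pdgfra*; lowest voom adjusted p = 0.513). In voom, 7.43% of all genes tested had an unadjusted p under 0.05. Of the 6, values are printed for *Cdh1* and *Pdgfra* only. *Cdh1*, the epithelial cadherin, measured 5.81 and 10.1 FPKM in the mutant and 12.1 and 8.25 FPKM in the controls, with overlapping groups. *Pdgfra*, a receptor of the epithelium, measured 4.02 and 5.25 against 5.86 and 5.32 FPKM, with the second mutant and second control libraries nearly level. Among other cell types, summed markers of endothelium and of pigmented ciliary body and iris were lower in both mutant libraries. Summed leukocyte and mesenchymal markers were higher in both, as given above. The 6 endothelial markers summed to 3.11 and 2.34 FPKM in the mutant against 3.84 and 3.56 FPKM in the controls. All 6 were lower in the mutant mean (median log2 fold change -0.40), with 0 at an unadjusted p under 0.05 in limma and 1 in voom. The 5 markers of pigmented ciliary body and iris summed to 0.634 and 0.709 FPKM against 0.845 and 1.34 FPKM, and both of the 2 tested were lower in the mutant mean. The part of all these markers in the cyclin values was not tested, and in RNA from whole lenses fewer epithelial cells and less RNA per cell cannot be told apart. Of 8 fibre markers, *Lim2* was listed at 0 in every library and the median log2 fold change of the other 7 was 0.01; 5 of these were higher and 2 lower, and 1 of the lower had an unadjusted p under 0.05 in limma and in voom.

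*Cdk4* (ENSMUSG00000006728, chr10:126899403-126903789) encodes a kinase partner of the D-type cyclins and was the more abundant of the pair. It measured 9.96 and 13.0 FPKM in the mutant libraries, below and above the controls at 10.7 FPKM each. The log2 fold change was 0.10 (SE 0.15; limma adjusted p = 0.903). *Cdk6* (ENSMUSG00000040274, chr5:3391485-3581008), the second such kinase, measured 0.441 and 0.427 FPKM in the mutant and 0.397 and 0.376 FPKM in the control libraries. Both mutant libraries were higher, but 97 to 117 reads a library carry a counting SE of 0.14, and the log2 fold change was 0.13 (SE 0.24; limma adjusted p = 0.919). *Cdk4* took 95.8% to 96.8% of the summed FPKM of this pair in every library.

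*Rb1* (ENSMUSG00000022105, chr14:73421113-73563262) encodes the retinoblastoma protein. It measured 1.58 and 1.79 FPKM in the mutant and 1.73 and 1.21 FPKM in the control libraries, so only control replicate 2 was apart, and the log2 fold change was 0.20 (SE 0.21; limma adjusted p = 0.838). *Rbl2* (ENSMUSG00000031666, chr8:91796685-91850472) encodes p130, the pocket protein of resting cells. It measured 0.794 and 0.892 FPKM against 1.01 and 0.840 FPKM, with overlap, and the log2 fold change was -0.12 (SE 0.19; limma adjusted p = 0.902). The relative *Rbl1* (p107), associated with cycling cells, measured 0.562 and 0.511 FPKM against 0.592 and 0.570 FPKM, with a log2 fold change of -0.10 (limma adjusted p = 0.931). Of the summed FPKM of the 3 pocket proteins, *Rb1* took 53.8% and 56.1% in the mutant libraries, against 51.8% and 46.2% in the controls, and *Rbl2* took 27.1% and 27.9% against 30.4% and 32.1%.

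A set of 5 of the 10 genes, *Ccnd1*, *Ccnd3*, *Cdk4*, *Rb1* and *Rbl2*, overlaps a protein-coding gene on the opposite strand in the table's coordinates. Whether the counting used strand is not given in the sources used here, and without strand the reads of such a pair cannot be told apart where they overlap. The partner of *Ccnd1*, *LTO1*, had 227 and 202 mutant reads and 190 and 229 control reads in replicates 1 and 2, fewer than *Ccnd1* in each. The partner of *Rbl2*, *Aktip*, had 658 to 717 reads, more than *Rbl2* in each.

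The surrounding pathway was described from 9 further lists, of which no gene passed an adjusted p under 0.05 in limma or in voom. The unadjusted calls given for them stand beside 6.31% of all genes tested in limma and 7.43% in voom. Of 3 INK4 inhibitors tested of 4, which block CDK4 and CDK6 directly, 1 was higher and 2 lower in the mutant mean. *Cdkn2c* (p18), the most abundant of them, measured 4.51 and 3.004 FPKM against 3.54 and 4.26 FPKM, with overlapping groups. Of 10 other pocket protein and E2F-DP genes tested of 11, 3 were higher and 7 lower, with a median log2 fold change of -0.06, and none had an unadjusted p under 0.05 in limma or voom. *E2f1*, an activator, had a log2 fold change of -0.12 (limma adjusted p = 0.867) and *E2f4*, the factor that works with p130 in repression, also one of -0.12 (limma adjusted p = 0.815). The MuvB core joins p130 in a repressor of cell cycle genes and, in cycling cells, the activators encoded by *Mybl2* and *Foxm1*. The 7 genes of this list were split 4 higher to 3 lower, with none past an unadjusted p of 0.05 in limma or voom. Among 8 genes of *Cdkn1b* turnover, which include the ubiquitin ligase subunits that degrade p27, 6 were higher and 2 lower, with a median log2 fold change of 0.06 and none past an unadjusted p of 0.05 in limma, and 1 in voom (*Cul1*, voom adjusted p = 0.652).

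Of cyclins E, A and B and their kinases, 7 of 8 were tested and *Ccna1* was listed at 0 in every library. In all, 5 were higher and 2 lower, and 1 had an unadjusted p under 0.05 in limma. This was *Ccne1*, the cyclin that takes over from the D-type cyclins at the start of S phase. It measured 0.400 and 0.499 FPKM in the mutant against 0.869 and 0.713 FPKM in the control libraries, from 19 and 26 against 45 and 35 reads. The log2 fold change was -0.70 (SE 0.23; limma unadjusted p = 0.026, adjusted p = 0.761; voom unadjusted p = 0.055), and both mutant libraries were below both controls. *Cdk2*, its kinase, had a log2 fold change of 0.31 (limma adjusted p = 0.811). *Ccna2*, the cyclin of S phase, measured 0.714 and 0.963 FPKM against 0.932 and 0.731 FPKM, with overlapping groups.

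The 16 E2F target genes of S phase were split 7 higher to 9 lower, with a median log2 fold change of -0.03. *Pcna*, the clamp of DNA polymerase, was the only 1 with an unadjusted p under 0.05 in limma, at 4.98 and 5.24 FPKM in the mutant against 4.20 and 3.93 FPKM in the control (log2 fold change 0.32, SE 0.11; limma unadjusted p = 0.031, adjusted p = 0.769; voom unadjusted p = 0.058). Of 8 mitosis genes, 2 were higher and 6 lower, with a median of -0.17 and none past an unadjusted p of 0.05 in limma or voom. *Mki67*, the proliferation marker, measured 1.14 and 1.21 FPKM in the mutant and 1.18 and 1.32 FPKM in the controls, and its log2 fold change was -0.08 (limma adjusted p = 0.925).

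Of 10 p53 genes, 6 were higher and 4 lower, with a median of 0.15. *Gadd45a*, a stress gene that p53 can induce, measured 21.6 and 19.5 FPKM in the mutant against 15.9 and 16.1 FPKM in the control libraries, and its log2 fold change of 0.35 (SE 0.10) had an unadjusted p of 0.014 in limma (adjusted p = 0.689). *Trp53* itself had a log2 fold change of 0.16 (limma adjusted p = 0.853) and *Mdm2*, its inhibitor, one of -0.12 (limma adjusted p = 0.905). Of 9 lens factors linked to cell cycle exit, 4 were higher and 5 lower, with none past an unadjusted p of 0.05 in limma or voom. *Prox1*, a homeobox factor that lens fibres need for *Cdkn1c* expression, measured 38.3 and 40.3 FPKM against 39.3 and 43.6 FPKM, a log2 fold change of -0.07 (limma adjusted p = 0.881). *Gata3* measured 0.620 and 1.01 FPKM against 1.12 and 1.15 FPKM, a log2 fold change of -0.46 (limma adjusted p = 0.811).

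**Figure D4:**
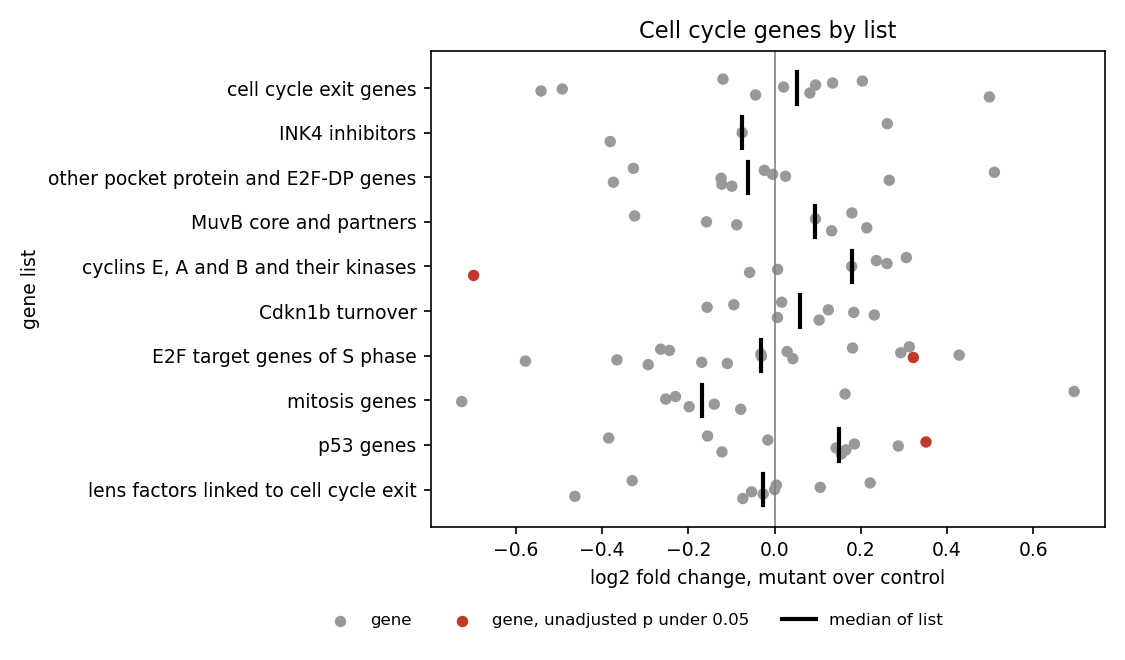
Log2 fold change of mutant over control for each gene tested in the 10 cell cycle exit genes and the 9 further lists, with red points for an unadjusted p under 0.05 in limma and a black bar for each list's median. List medians lie between -0.17 and 0.18, and the 3 red points are *Ccne1*, *Pcna* and *Gadd45a*. Over all genes tested, 6.31% had an unadjusted p under 0.05 in limma.

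Promoter sequence was read from the RefSeq windows of GRCm38.p6, which run from 250 bases before to 50 bases after each gene's start, and 6 of the 10 genes matched an entry (*Cdkn1a*, *Cdkn1b*, *Ccnd3*, *Cdk4*, *Cdk6* and *Rbl2*). They were searched on both strands for the E2F letters TTTCCCGC, TTTCGCGC, TTTGCCGC and TTTGGCGC. None of the 6 windows held them, beside 7 of 13 E2F target genes, 5 of 9 other pocket protein and E2F-DP genes, and 2.60% of 27025 genes in the table. A match is a description of letters and not of binding. A stretch of each of 3 genes is shown with the matches in capitals, from *Mcm5* and *Mcm6*, helicase subunits of the E2F target list, and from *Rbl1*, the third pocket protein; in the first 2, matches on both strands overlap.
Mcm5, chr8:75109330-75109389, plus strand: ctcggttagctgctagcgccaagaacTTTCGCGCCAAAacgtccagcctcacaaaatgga
Mcm6, chr1:128359782-128359841, minus strand: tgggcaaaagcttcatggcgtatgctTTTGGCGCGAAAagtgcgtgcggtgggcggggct
Rbl1, chr2:157204535-157204594, minus strand: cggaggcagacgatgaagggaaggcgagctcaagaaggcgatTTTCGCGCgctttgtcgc
*Mcm5* measured 0.506 and 0.819 FPKM in the mutant against 1.09 and 0.937 FPKM in the control libraries, and *Mcm6* 0.745 and 0.712 against 0.981 and 0.953 FPKM. Both mutant libraries were below both controls for each, but neither passed an unadjusted p of 0.05 in limma (0.077 for *Mcm5* and 0.081 for *Mcm6*). In voom the unadjusted p was 0.040 for *Mcm5* and 0.12 for *Mcm6*. These 2 genes were chosen for display after their values were seen. Of the 16 E2F target genes, 6 had groups that did not overlap, beside 36.6% of all genes tested. The median log2 fold change of that list was -0.03.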

How the data were processed

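The authors deposited a table of FPKM for 56748 genes in 4 libraries of pooled lenses. Alignment with HISAT2, counting with featureCounts and the FPKM were done by their sequencing provider. The submitters' processing notes name build mm39, and gene positions are those of the deposited table. Of its per-sample columns, 0 were left unused. Times gene length, the FPKM were whole multiples of a step (within 1e-06), which gave whole reads.

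Genes whose mean reached 0.1 FPKM were tested after median-ratio scaling on log2(FPKM + 0.1) with limma (lmFit, eBayes with trend) and Benjamini-Hochberg adjustment. The deposited values already had the same median ratio, 1.006, in every library, so this scaling changed nothing. The alternative of no further scaling thus repeated the main fit. The fit was run on simulated data, in which the changes were larger than the estimate of any of the 10 genes. That run therefore does not show how often changes as small as theirs would be found. Alternatives were other pseudocounts, filters and scalings, no trend, an *Xist* term, the replicate block, voom on whole reads and each library left out. The genes and lists were chosen with earlier results of these data known. All 10 cell cycle exit genes were named, with *Rbl1*, *E2f1*, *E2f4*, *Ccne1*, *Cdk2*, *Ccna2*, *Mki67*, *Cdkn2c*, *Trp53*, *Mdm2*, *Prox1*, *Gata3* and any pathway gene with an unadjusted p under 0.05. Marker genes, *Cul1*, *Mybl2*, *Foxm1*, *Mcm5* and *Mcm6* lie outside this rule. The remaining marker lists overlapped between groups: retina summed to 0.249 and 1.86 FPKM in the mutant libraries against 0.739 and 0.431 in the controls, and blood to 25.2 and 17.2 against 34.9 and 21.6. Software was R 4.3.3, limma 3.58.1, matplotlib 3.10.9, pandas 2.3.3, numpy 2.4.6 and Python 3.11.15.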

Additional observations from a re-analysis of the deposited data

How the results depend on the processing

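Of the 14 alternatives, none that kept all 4 libraries gave any of the 10 cell cycle exit genes an adjusted p under 0.05. Among these, the adjusted p for *Ccnd1* ranged from 0.253 in voom to 0.883 in limma with the replicate block. For *Ccnd2* it ranged from 0.289 in voom to 0.883 in limma with the replicate block. The count of the 10 with an unadjusted p under 0.05 went from 0 to 2 with the *Xist* term and with voom (*Ccnd1* and *Ccnd2* in both), to 1 at a mean FPKM of at least 1 and to 1 with scaling without crystallins (*Ccnd1* in both), and to between 0 and 2 with a library left out. These 2 were *Cdk4* and *Cdkn1a* without mutant replicate 1; without mutant replicate 2 the gene was *Ccnd2*. At a mean FPKM of at least 1, *Cdkn1a*, *Cdk6* and *Rbl2* were not tested. Filters and no trend leave an estimate as it is, and so do the *Xist* term and the replicate block in a balanced set of libraries. With no further scaling, the fit repeated the main one. Only the other alternatives could thus change a direction. Direction reversed only with a library left out: *Cdkn1b* to 0.0077 without control replicate 1 and 0.055 without mutant replicate 1, *Ccnd3* to -0.035 without control replicate 1 and -0.036 without mutant replicate 2, *Cdk4* to -0.097 without mutant replicate 2, *Rb1* to -0.037 without control replicate 2 and *Rbl2* to 0.0031 without control replicate 1. With a library left out, these log2 fold changes ranged from -0.14 to 0.055 for *Cdkn1b*, -0.036 to 0.078 for *Ccnd3*, -0.097 to 0.29 for *Cdk4*, -0.037 to 0.44 for *Rb1* and -0.24 to 0.0031 for *Rbl2*.

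Over all genes, the count at an adjusted p under 0.05 in limma was 6. It was 1 with the *Xist* term, 2 at a mean FPKM of at least 1, 1 with no filter, 2 with no trend, 2 with a pseudocount of 0.01, 2 with a pseudocount of 1, 14 with voom and 0 to 0 with a library left out, where the lone sample is assumed to vary like the other group. The replicate block gave 3, and 0 of the 10 genes. Same-numbered libraries share a number on the labels. Over genes, their deviations from the group means correlated at -0.0051, and a batch shared by such libraries was not tested. At an unadjusted p under 0.05 the count was 1009, 617 at a mean FPKM of at least 1, and 787 to 1465 with a library left out. With a library left out, list medians ranged from -0.36 to 0.21 for INK4 inhibitors, -0.16 to -0.030 for other pocket protein and E2F-DP genes, -0.11 to 0.079 for MuvB, -0.028 to 0.24 for cyclins E, A and B, -0.067 to 0.13 for *Cdkn1b* turnover, -0.13 to 0.024 for E2F targets, -0.38 to 0.0040 for mitosis genes, -0.087 to 0.0016 for lens factors and -0.0078 to 0.17 for p53 genes. The causes were not tested. Depth limits *Cdkn1a*, at 6 to 15 reads a library, and its log2 fold change ranged from 0.10 to 0.86 over the alternatives.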

Other observations

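The cyclins and cyclin-dependent kinases outside the lists above, many of which act in transcription or in neurons and not in the cell cycle, were also read. Of 31 in the table, 29 were tested, 18 were higher and 11 lower in the mutant mean, and none had an unadjusted p under 0.05 in limma or voom. Their median log2 fold change was 0.02. The most abundant, *Cdk16*, measured 14.4 and 15.1 FPKM in the mutant and 14.2 and 16.0 FPKM in the control libraries, and *Cdk5*, a kinase of differentiated cells, measured 4.76 and 4.29 against 4.67 and 4.38 FPKM.

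*Cdkn1c* lies in an imprinted cluster, and the 20 other genes tested within 1 Mb of it on either side were read after the values were seen. Of these, 12 were higher and 8 lower, with a median log2 fold change of 0.04. The neighbour *Nap1l4*, a histone chaperone, was more abundant than *Cdkn1c*, at 189 and 224 FPKM in the mutant and 218 and 237 FPKM in the control libraries. *Kcnq1ot1*, the noncoding RNA that silences the cluster on the paternal chromosome, measured 0.135 and 0.077 FPKM against 0.078 and 0.114 FPKM, with overlapping groups. *Tnfrsf22*, a decoy receptor, was the only 1 with an unadjusted p under 0.05 in limma, at 1.58 and 1.59 FPKM against 2.59 and 2.17 FPKM (log2 fold change -0.55, unadjusted p = 0.012, adjusted p = 0.687). Over all genes tested, 6.31% had such a p.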
